A study of Mus musculus with 2 samples.

Results

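The genes described here are 10 genes with which absorptive cells of the small intestine take up, bind, re-esterify and export dietary fat and retinol: Apoa1, Apoa4, Apoc3, Apob, Mttp, Fabp1, Fabp2, Rbp2, Dgat1 and Cd36. They were chosen by name, and all 10 were among the 22253 genes of the expression table. The material was mouse distal small intestinal organoid cultures of the reporter genotype Neurog3-RFP;Gcg-Venus, which both groups carried. There were 2 control cultures and 3 Etv1 mutant cultures, described as biological replicates, whose cells were sorted, marked with hashtag oligos (A0308 and A0309 for controls, A0310, A0311 and A0312 for mutants, the order in which cultures are numbered here) and pooled before sequencing. The Etv1 allele, the sort gate, the age of the donors and whether the mutant cultures were separate clones are not given in the sources used here.

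After a meal, fatty acids and monoglycerides enter the enterocyte, are carried by small binding proteins, are rebuilt into triglyceride in the endoplasmic reticulum and leave the cell as chylomicrons built around apolipoprotein B. The microsomal triglyceride transfer protein loads lipid onto apolipoprotein B, and apolipoproteins A-I, A-IV and C-III join the particle or are secreted beside it. Most of these genes are switched on as cells leave the crypt and mature along the villus, and organoids hold crypt cells and differentiating cells side by side.

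Of 3409 barcodes, 2725 had at least 500 detected genes and at most 25% mitochondrial counts, and 1432 of these carried the hashtag of exactly 1 culture: 323 and 349 control cells and 282, 281 and 197 mutant cells, with 4193197 to 7254380 counts per culture. Etv1 itself had 45 and 44 counts in the control cultures (6.20 and 6.29 counts per 1000000, CPM) and 20, 20 and 13 in the mutant cultures (3.21, 3.06 and 3.10 CPM), so the mutant cultures lay below the controls without overlap. Which part of the transcript these counts come from, relative to the mutation, is not known here. With hashtags called by MULTIseqDemux, Etv1 was among the 10 leading genes of the enteroendocrine-like cluster. Enteroendocrine-like cells numbered 18 and 18 in the controls and 7, 10 and 10 in the mutants. Their part in the Etv1 difference was not tested. The epithelial gene Epcam had 2404 to 2608 CPM in every culture, and the ileal bile acid genes Fabp6 and Slc10a2 were present in all 5, with 47.9 to 487 CPM and 13.1 to 33.1 CPM. Clustering, from which the 10 genes were left out, gave an enterocyte-like class of 271 cells. It joined clusters 7 and 2. Cluster 7 had 96 cells and 12 of 12 enterocyte markers raised, and it was led by Reg3b, Tmigd1 and Adh6a. Cluster 2 had 175 cells and 7 of 12 markers raised, none of them among its 10 leading genes. Those were Lgals3, F3, Il1rn, Anxa1, Myl7, Areg, Emp1, Ly6a, 1810065E05Rik and Plaur, several of them known from stressed or regenerating epithelium. Finer clustering (Leiden resolution 1.2) gave an enterocyte-like cluster of 40 cells led by Ly6d, Sprr1a and F3. It gave another of 116 cells led by St3gal4, Mgat4c and Dmbt1. Immune, mesenchymal and endothelial markers were at 0 in these 271 cells. Paneth markers summed to 1102 CPM in the enterocyte-like cells of mutant culture 1 and to 138 to 308.7 CPM in those of the other 4 cultures; their part in the results below was not tested.

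In the genome build mm10, Apoa1, Apoc3 and Apoa4 lie side by side on chromosome 9, from position 46228580 to 46243459, a stretch of 14880 bases. Apoc3 is on the minus strand and the other two are on the plus strand. Rbp2 is elsewhere on chromosome 9 (98486115 to 98509781), Fabp2 is on chromosome 3 (122895072 to 122899506), as is Mttp, Fabp1 is on chromosome 6 (71199827 to 71205023) and Apob is on chromosome 12 (7977648 to 8016835). An annotated antisense gene overlaps Fabp2 (4933405D12Rik), Apoa4 (Gm10680) and Mttp (Gm43691), and the sources used here do not say whether counting used the strand. The windows before the start are shown for Fabp1 and Rbp2, whose counts were nearly all in enterocyte-like cells. They are also shown for Apob and Fabp2, whose counts were spread over many classes. The gene positions above are from GENCODE, and the RefSeq starts used for the windows can differ from them. The windows of Fabp1, Rbp2 and Apob therefore end past the gene starts given above. Each line gives the 120 bases before the transcript start (RefSeq, GRCm38.p6, plus strand, 5′ to 3′), with matches to the motifs searched in capitals.
Fabp1, chr6:71199759-71199878: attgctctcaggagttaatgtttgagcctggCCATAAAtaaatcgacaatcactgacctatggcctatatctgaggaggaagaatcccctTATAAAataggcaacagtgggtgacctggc
Rbp2, chr9:98490417-98490536: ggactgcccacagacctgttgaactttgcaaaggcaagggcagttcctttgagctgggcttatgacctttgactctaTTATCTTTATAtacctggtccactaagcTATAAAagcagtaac
Apob, chr12:7977557-7977676: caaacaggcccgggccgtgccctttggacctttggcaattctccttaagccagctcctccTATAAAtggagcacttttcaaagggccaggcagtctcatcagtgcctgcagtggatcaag
Fabp2, chr3:122894952-122895071: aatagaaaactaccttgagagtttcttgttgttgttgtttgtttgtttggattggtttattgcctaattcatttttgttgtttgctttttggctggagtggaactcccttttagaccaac

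Motifs of 4 kinds were searched on both strands of the 250 bases before the start, in the 8 of the 10 genes with a window (all but Apoc3 and Dgat1). The TATA motif TATAAA was found in Apob, Fabp1 and Rbp2, against 12.4% of all 32851 windows. The caudal (CDX) motif CCATAAA was found in Fabp1 alone, at 227 and 89 bases before the start, against 2.43% of windows. The GATA motif AGATAA was found in Rbp2 alone, as its reverse complement TTATCT at 43 bases before the start, where it shares 1 base with a reversed TATA match, against 9.99% of windows. The strict HNF4 motif CAAAGTCCA (0.384% of windows) matched none of the 8. Such matches describe these letters and not binding.

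**Figure D1:**
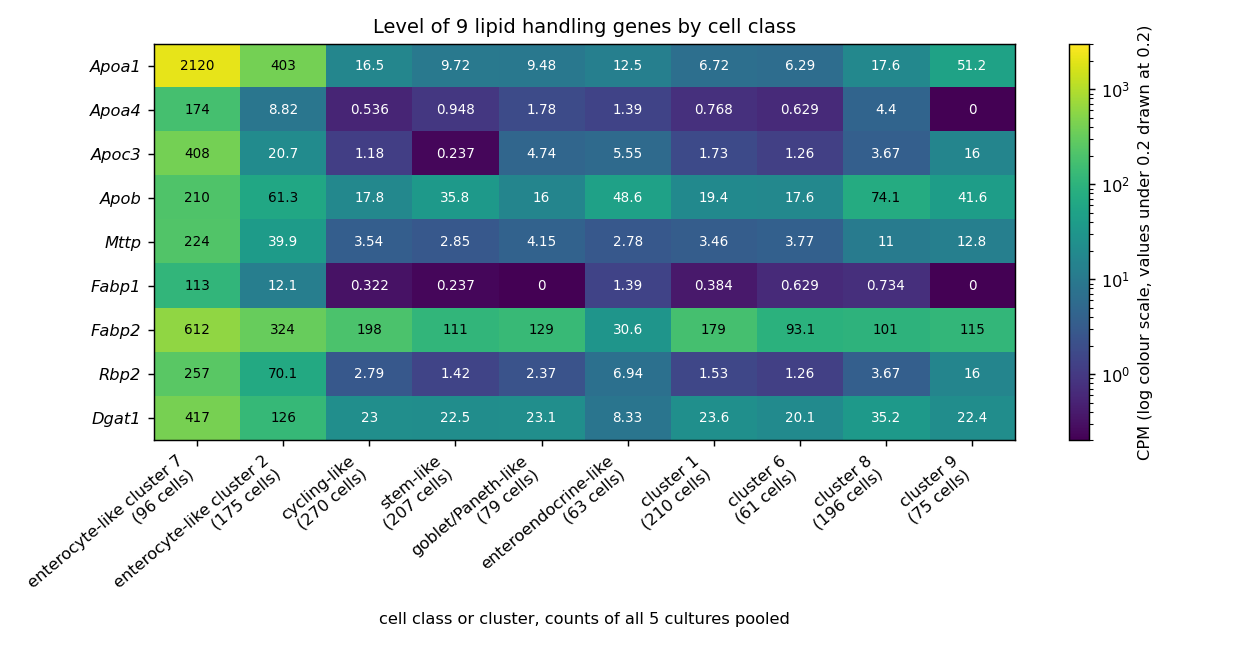
Level of 9 of the 10 genes in each cell class or cluster, as CPM over the pooled counts of the 5 cultures, on a log colour scale with each value printed. Along every row the highest level is in enterocyte-like cluster 7, and only Fabp2, Apob and Dgat1 stay above 8 CPM in all columns.

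Apoa1, the main apolipoprotein of high-density lipoprotein, was almost entirely an enterocyte-like transcript in these cultures: 95.6% of its 6936 counts lay in the 271 enterocyte-like cells, and its pooled level there was 78.1-fold that of all other cells (42.5 to 250-fold in single cultures). The neighbours of Apoa1 on chromosome 9 were also mostly enterocyte-like transcripts. Apoa4, which is secreted on chylomicrons and linked to satiety, had 94.8% of its 458 counts in these cells, at 64.9-fold, and Apoc3, an inhibitor of lipoprotein lipase, had 95.8% of its 1063 counts, at 81.2-fold. They differed from Apoa1 within the class: cluster 2 held 26.3% of Apoa1 counts and 8.73% and 8.84% of those of Apoa4 and Apoc3. The Apoa1 share of cluster 2 rested largely on single cells. In mutant culture 1, 1 cell held 1025 of its 1204 counts, in mutant culture 3 1 held 260 of 305, and in control culture 1 1 held 201 of 235. These shares are descriptions, since the classes were made from the same cells, although the 10 genes took no part in making or naming them.

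Fabp1, the liver-type fatty acid binding protein, was the most restricted by this measure, with 97.2% of 321 counts in enterocyte-like cells and a pooled ratio of 124. It was also rare: 31 of the 1432 cells held any Fabp1 count. Rbp2, which carries retinol inside the enterocyte, had 93.7% of 961 counts there (53.0-fold), and Mttp had 87.7% of 786 (25.5-fold). Dgat1, an enzyme of the last step of triglyceride synthesis, was less restricted at 72.9% of 2080 counts (9.65-fold).

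Apob and Fabp2 stood at the other end. Apob had 54.8% of its 1375 counts in enterocyte-like cells, where its level was 4.35-fold that of other cells. Fabp2, the intestinal fatty acid binding protein, had 42.9% of 6663 counts there, with 27.7% in cycling-like cells, 14.02% in cluster 1 (unnamed, led by Ung, Ifitm3 and Tipin) and 7.05% in stem-like cells. Its enterocyte-like level was only 2.69-fold that of the other cells together. Cd36, a fatty acid receptor of the cell surface, had 4 counts in all 3409 barcodes and 2 in the analysed cells, both in enterocyte-like cells of mutant culture 2, so nothing more can be said of it at this depth.

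Over the 5 cultures Fabp2 averaged 404 ± 103 CPM (SD, n = 5) in enterocyte-like cells, 191 ± 49.5 in cycling-like cells, 187 ± 38.3 in cluster 1, 137 ± 33.3 in goblet/Paneth-like cells, 119 ± 47.1 in stem-like cells, 102 ± 17.0 in cluster 8 and 27.2 ± 12.3 in enteroendocrine-like cells. Cycling-like cells and cluster 1 differed by less than the spread between cultures, as did goblet/Paneth-like and stem-like cells, and stem-like cells and cluster 8. Stem-like cells lay below cluster 8 in both control cultures, with 84.7 and 61.3 CPM against 123 and 106 CPM. In every mutant culture they lay above it, with 180, 143 and 125 CPM against 79.2, 109 and 90.5 CPM. Cluster 1 lay above goblet/Paneth-like cells in each of the 5 cultures. The highest enteroendocrine-like value (38.9 CPM) was below the lowest stem-like value (61.3 CPM).

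For Apob the order was different. It had 112 ± 26.3 CPM in enterocyte-like cells (SD, n = 5), 72.0 ± 17.8 in cluster 8, 49.1 ± 14.7 in enteroendocrine-like cells and 36.5 ± 5.44 in stem-like cells, and 16.7 to 20.2 on average in cluster 1, cycling-like and goblet/Paneth-like cells. Cluster 8 holds 196 cells of low depth (median 5808 UMIs, unique molecular identifiers, which count molecules) led by mitochondrial and olfactory receptor genes, and it stays unnamed. Dgat1 had 217 ± 24.5 CPM in enterocyte-like cells, 22.4 to 23.5 on average in cycling-like, stem-like, goblet/Paneth-like and cluster 1 cells, which did not differ beyond their spread, and 7.396 ± 10.16 in enteroendocrine-like cells.

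Within the enterocyte-like class the 9 genes with a ratio separated its 2 clusters in the same direction as the enterocyte markers, whose summed level was 15940 CPM in cluster 7 and 2739 CPM in cluster 2. Cluster 7 over cluster 2, Apoa4 and Apoc3 had the widest ratios (19.7 each), then Fabp1 (9.36), Mttp (5.62), Apoa1 (5.26), Rbp2 (3.66), Apob (3.42), Dgat1 (3.32) and Fabp2 (1.89). Each of these 9 ratios was above 1 in every culture with counts in both clusters, from 1.38 for Fabp2 to 70.2 for Apoc3. Fabp1 in mutant culture 2 had 134 counts in cluster 7 and 0 in cluster 2, so it has no ratio there. The measured ratio for Apoa1 varied from 2.14 to 58.1 between cultures, and its cluster 2 level included the single rich cells named above.

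Every cell of at least 5000 UMIs was then thinned to 5000, so that shares of cells could be set side by side across depths; this left out 10 cells of cluster 7, 16 of cluster 2 and 10 enteroendocrine-like cells. Apoa1 was seen in 69.8% of 86 cells of cluster 7 (exact 95% interval 58.9 to 79.2%), in 13.8% of 159 cells of cluster 2 (8.88 to 20.2%) and in 5.41% of 74 goblet/Paneth-like cells (1.49 to 13.3%), a class that should lack it. Before thinning the shares were 85.4%, 30.3% and 15.2%, at median depths of 26415, 26917 and 18431 UMIs. The share in cluster 7 was well above this background, while the intervals of cluster 2 and the background overlapped. The pooled Apoa1 level was 403 CPM in cluster 2 and 9.48 CPM in goblet/Paneth-like cells. Most of the Apoa1 counts of cluster 2 lay in the single rich cells named above. Enteroendocrine-like cells showed Apoa1 in 9.43% of 53 cells (3.14 to 20.7%), but they are a poor background, since their enterocyte markers summed to 3103 CPM, against 370 CPM in goblet/Paneth-like cells, and 3 of the 12 were raised.

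For the other genes in cluster 7 the thinned shares were 81.4% for Dgat1, 74.4% for Mttp, 73.3% for Fabp2, 61.6% for Apob, 59.3% for Apoc3, 55.8% for Rbp2, 39.5% for Apoa4 and 12.8% for Fabp1. In cluster 2 they were 41.5% for Dgat1, 12.6% for Mttp, 60.4% for Fabp2, 20.8% for Apob, 6.29% for Apoc3, 10.7% for Rbp2, 3.15% for Apoa4 and 1.26% for Fabp1. Apob was seen in 8.89% of 270 cycling-like cells (5.78 to 12.9%), below its interval in cluster 2 (14.7 to 27.9%), and in 22.6% of enteroendocrine-like cells. In enteroendocrine-like cells Apoc3, Mttp, Fabp1 and Rbp2 were seen in 0 of 53, which allows a share of up to 5.66%. Fabp2 was seen in 57.8% of cycling-like cells (51.6 to 63.7%) and in 11.3% of enteroendocrine-like cells (4.27 to 23.0%), so its share in crypt cells was far above the lowest class. All such intervals and limits cover counting error only.

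A median cell of cluster 7 held UMIs of 5 of the 10 genes after thinning, and 45.3% held 6 or more. In cluster 2 the median was 1 gene and 1.26% of cells held 6 or more, and in the 7 other classes and clusters with cells of that depth no cell did. Within cluster 7 the highest rank correlations over the 86 thinned cells were those among the chromosome 9 neighbours, with Spearman's rho of 0.467 for Apoa1 and Apoc3, 0.464 for Apoa4 and Apoc3 and 0.458 for Apoa1 and Apoa4. The lowest were −0.206 for Rbp2 and Dgat1 and −0.188 for Apob and Fabp1. These cells share their library and cluster, so the values are descriptions.

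The levels per class were also used to rank genes by likeness to the sum of the 10 genes. Fabp2 weighs heavily in that sum outside enterocyte-like cells, with 1843 of the 2455 counts in cycling-like cells. Over 40 sums of class by culture and 5371 genes, the summed level of the 10 genes ranked most like Coro2a (Spearman's rho 0.732), Dbi (0.730), an acyl-CoA binding protein, and Gsta2 (0.728), a glutathione transferase. Mt2, Mt1, Pgd, Txn1, Cox6a1, Mgst1 and Ces2e followed, down to 0.676. Fabp2 itself had the highest correlation with the sum (0.873), whereas Dgat1 had 0.534, Apoa1 0.462, Apoc3 0.453 and Apob 0.447. The sums share cultures and depth differences, so no p-value is given.

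The comparison of mutant with control cultures asks how these genes stand without normal Etv1, a transcription factor of the ETS family. Enterocyte-like cells were 18.9% and 12.3% of control and 19.5%, 27.1% and 18.3% of mutant cells, or 15.6 ± 4.64% (SD, n = 2) and 21.6 ± 4.75% (n = 3). The groups overlapped, and the difference of 6.01 percentage points gave p = 0.4 in a two-sided exact permutation test, whose smallest possible p with 5 cultures is 0.1. It was 1.38 points with hashtags called by MULTIseqDemux, and 2.72 to 9.29 points when each culture was left out in turn. The MULTIseqDemux cells were clustered anew, so the enterocyte-like class changed along with the hashtag calls. There a cluster of 59 cells led by Dmbt1, Ces1f and Mgat4c had 2 enterocyte markers raised and stayed unnamed. Cells were sorted before sequencing, and the gate can set such shares. Cluster 2 alone was 12.4% and 7.45% of control cells and 12.8%, 16.7% and 13.2% of mutant cells, which did not overlap (exact permutation p = 0.1, the smallest possible), and cluster 7 was 6.50% and 4.87% against 6.74%, 10.3% and 5.08%.

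Summed over all cells of a culture, the 10 genes reached 590 and 452 CPM in controls against 898, 735 and 667 CPM in mutants. Every mutant culture was above both controls. Of the 10 genes, 9 passed the count filter and none passed the test (edgeR's quasi-likelihood test, adjusted p under 0.05; DESeq2 also called 0), although all 9 estimates were above 0, with a median log2 fold change of 0.49 against 0.00 for all genes. The background was 1 of 11061 genes called (0.00904%), and 50.9% of genes had an estimate above 0. A level over all cells mixes the share of enterocyte-like cells with the level inside them.

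Apoa4 had 11.4 and 7.14 CPM in controls against 16.5, 17.3 and 26.0 CPM in mutants. All 3 mutant values were above both controls, with a log2 fold change of 1.06 (SE 0.28; edgeR adjusted p = 0.9999, unadjusted p = 0.00679). Apob had 37.5 and 36.1 CPM against 52.6, 52.9 and 41.97 CPM, again without overlap (log2 fold change 0.41, SE 0.13). In mutant culture 3, 1 cell held 69 of the 109 Apoa4 counts. Without that cell the culture had 9.59 CPM of Apoa4, below control culture 1 with all its cells. With the cell richest in Apoa4 left out of every culture the values were 7.75 and 6.03 against 12.9, 14.7 and 9.59 CPM, which did not overlap. For Apob the values without each culture's richest cell were 36.3 and 34.9 against 49.1, 50.3 and 38.9 CPM. Apoa4 and Apob, 2 of 9 genes, were the ones whose groups did not overlap, higher in mutant, a pattern shown by 9.12% of all genes tested.

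Fabp1 had the largest estimate over all cells, 2.36 (SE 0.68; edgeR adjusted p = 0.9999), from 1.24 and 4.86 CPM in the controls and 19.7, 20.6 and 4.77 CPM in the mutants. Mutant culture 3 was at the level of control culture 2, so the groups overlapped. The estimates were 0.84 (SE 0.34) for Rbp2, 0.64 (SE 0.33) for Apoa1, 0.49 (SE 0.24) for Mttp, 0.46 (SE 0.27) for Fabp2, 0.37 (SE 0.24) for Apoc3 and 0.26 (SE 0.30) for Dgat1. Of the 9 genes, 4 (Apoa4, Fabp1, Apob and Rbp2) had an unadjusted p under 0.05, an outcome that 1.13% of all genes had above 0.

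With enterocyte-like cells left out, the estimate over all remaining cells was 0.46 for Fabp2, 0.64 for Rbp2 and 0.24 for Dgat1, and it was 0.13 for Apob and 0.03 for Mttp. Apoa1 and Apoc3 turned to the other side, at −1.24 and −0.87. For Apoa1 control culture 2 held 117 counts in its 58 cycling-like cells, of which 109 lay in 1 cell. Apoc3 was at only 1.84 CPM over the remaining cells of all cultures together. In control culture 2, 1 cell of cluster 1 held 6 of the 7 Apoc3 counts of that cluster.

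**Figure D2:**
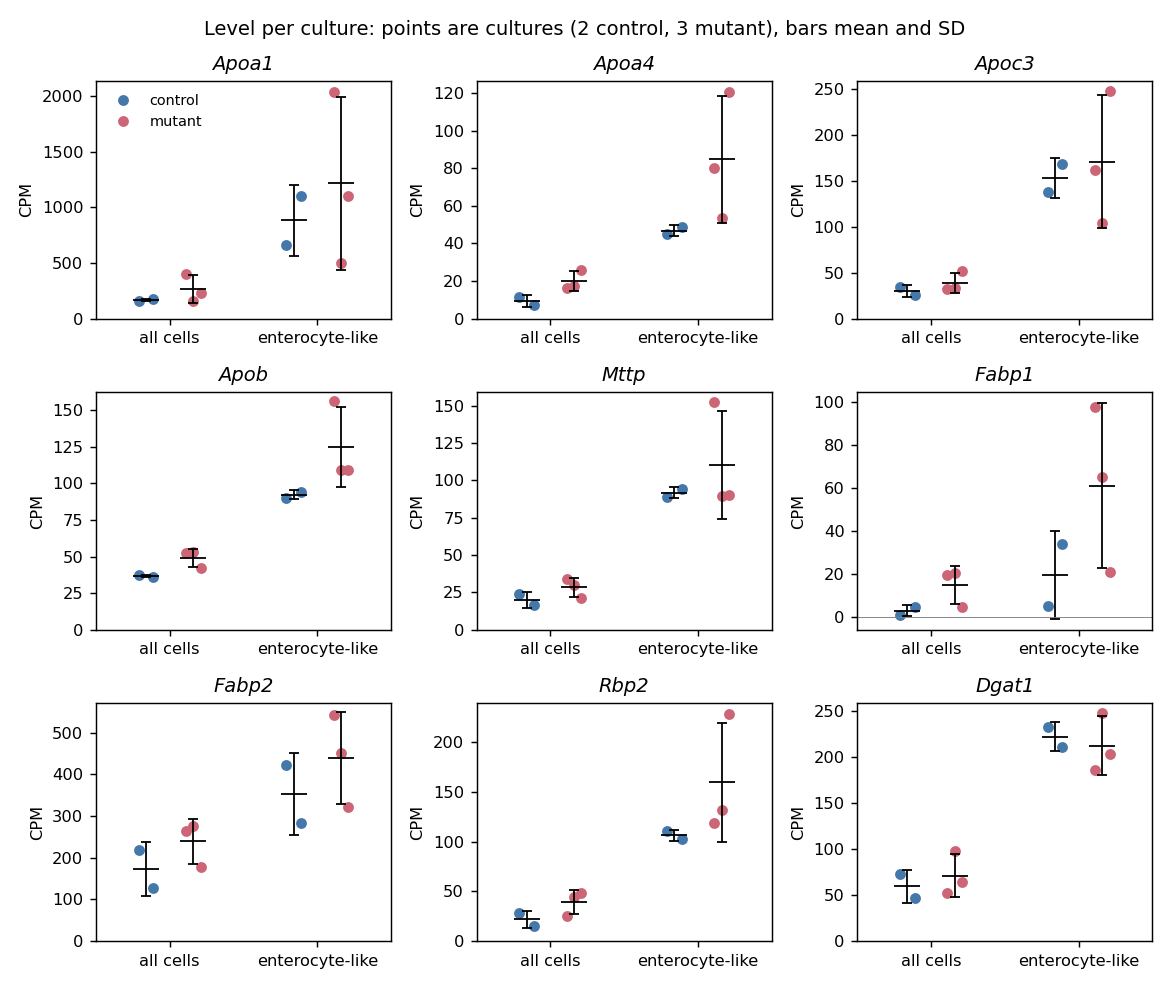
CPM of each gene in each culture, over all cells and over enterocyte-like cells, with blue points for the 2 control cultures and red points for the 3 mutant cultures; black bars are the mean and SD. The mutant points lie above both control points for Apoa4 and Apob in both columns, and for Rbp2 in enterocyte-like cells. The other panels overlap in both columns. In mutant culture 3, 1 cell holds most Apoa4 counts. With each culture's cell richest in Apoa4 left out, its separation holds over all cells and is lost in enterocyte-like cells.

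Inside the enterocyte-like cells the estimates were nearer to 0 than over all cells for each gene tested except Apob, a difference between fits that was not tested. None of the 9 passed in edgeR (0 of 7570 genes called, 0.0%) or in DESeq2, and 2 (Fabp1 and Apoa4) had an unadjusted p under 0.05, as 1.15% of all genes had above 0. Estimates were above 0 for 8 of 9 genes, with a median of 0.43 against 0.01 for all genes, of which 51.0% were above 0. The summed enterocyte markers overlapped between the groups, with 6842 and 7449 CPM in controls against 6594, 7742 and 6686 CPM in mutants. The genes whose groups did not overlap were Apoa4, Apob and Rbp2, 3 of 9, against 8.27% of all genes.

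Among the apolipoproteins, Apoa4 had 44.8 and 48.8 CPM in control and 80.3, 53.4 and 121 CPM in mutant enterocyte-like cells (log2 fold change 0.82, SE 0.32; edgeR adjusted p = 0.9998). The value of mutant culture 3 rested on 36 cells, of which 1 held 69 of the 103 counts. Without each culture's cell richest in Apoa4 the values were 29.7 and 41.95 against 62.9, 45.3 and 40.9 CPM, which overlapped. Apob had 90.3 and 94.4 against 156, 109 and 109 CPM (0.43, SE 0.19), with no cell holding more than 22 counts. Apoa1 had 657 and 1105 CPM in the controls and 2038, 501 and 1105 CPM in the mutants (0.46, SE 0.46). Its highest and lowest cultures were both mutant, and 1 cell of mutant culture 1 held 1025 of that culture's 2462 enterocyte-like counts. Apoc3 had 137 and 168 against 161, 104 and 247 CPM (0.15, SE 0.31), with 149 of the 211 counts of mutant culture 3 in 1 cell.

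Of the binding proteins, Fabp1 had 5.24 and 34.2 CPM in the controls and 97.7, 65.0 and 21.1 CPM in the mutants (1.86, SE 0.70; edgeR adjusted p = 0.9998). Between 3 and 6 cells per culture held all these counts, and the 5 richest held at least 88.9% of them. The estimate was 0.89 without control culture 1 and 3.53 without control culture 2, and with no count filter Fabp1 passed the test (1.87, edgeR adjusted p = 8.762e-06). Rbp2 had 111 and 103 against 119.2, 132 and 229 CPM (0.56, SE 0.27), and 101 of the 195 counts of mutant culture 3 were in 1 cell. Without each culture's cell richest in Rbp2 the values were 95.7 and 88.3 against 88.2, 119 and 115 CPM, which overlapped. Fabp2 had 422 and 283 against 541, 451 and 322 CPM (0.30, SE 0.23), which overlapped.

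For lipid loading and triglyceride synthesis there was less to see. Mttp had 89.1 and 94.4 CPM in the controls and 152, 89.3 and 90.3 CPM in the mutants (0.27, SE 0.24), so that mutant culture 1 alone stood apart. Dgat1 had 234 and 212 against 186, 248 and 204 CPM (−0.06, SE 0.17). When each cell was given equal weight, the estimates of Apoa1 (−0.33), Apoc3 (−0.42) and Rbp2 (−0.11) lay below 0, and those of Apoa4 (0.45), Apob (0.37) and Fabp1 (1.56) stayed above 0 without passing the test.

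Cluster 7 and cluster 2 were also fitted apart. Cluster 7 had 21 and 17 control and 19, 29 and 10 mutant cells, in some cultures fewer than the minimum set for the other fits. In cluster 7 the estimates were 0.88 for Apoa4, 0.45 for Apob, 1.51 for Fabp1, 0.02 for Apoa1 and −0.09 for Rbp2. Apoa4 in cluster 7 had 139 and 125 CPM in the controls and 207, 127.5 and 450 CPM in the mutants, which overlapped. In mutant culture 3, 1 cell held 69 of the 96 Apoa4 counts of cluster 7. In cluster 2 the estimates were 2.19 for Apoa1, 1.52 for Apoc3 and 1.77 for Rbp2, and none passed the test in either cluster. Apoc3 in cluster 2 had 6.55 and 15.9 CPM in the controls and 60.4, 14.55 and 14.1 CPM in the mutants, which overlapped. Mutant culture 1 alone stood apart, and 1 of its cells held 24 of its 49 Apoc3 counts. Apoa1 in cluster 2 had 192 and 90.9 CPM in the controls and 1484, 21.0 and 477 CPM in the mutants, with the highest and the lowest value both in mutant cultures. In mutant culture 1, 1 cell held 1025 of the 1204 counts. Without each culture's cell richest in Apoa1 the values were 29.4 and 21.9 against 239, 11.4 and 74.25 CPM. Rbp2 in cluster 2 had 38.5 and 20.7 against 81.4, 58.2 and 188 CPM, but 1 cell held 101 of the 120 counts of mutant culture 3. In control culture 1, 1 cell held 32 of the 47 counts. Without each culture's cell richest in Rbp2 the values were 13.0 and 11.5 against 30.75, 50.45 and 31.4 CPM, which did not overlap. They rest on 15 and 7 counts in the controls and 23, 62 and 19 counts in the mutants. The share of all genes with such a pattern in cluster 2 was not computed.

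**Figure D3:**
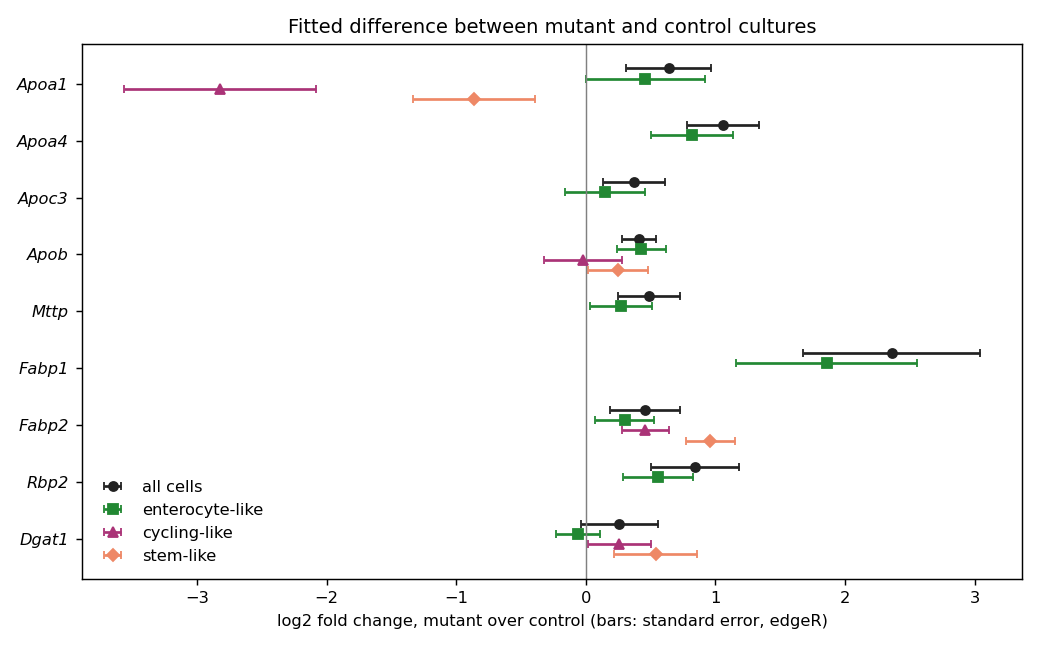
Log2 fold change of mutant over control cultures with its standard error (edgeR), for the genes that passed the count filter in all cells, enterocyte-like, cycling-like and stem-like cells; none passed the test. Fabp1 has the largest positive estimates with wide errors, and Apoa1 changes side between enterocyte-like cells (0.46) and cycling-like cells (−2.82).

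In the crypt classes 4 of the 10 genes had enough counts to be tested: Apoa1, Apob, Fabp2 and Dgat1. Fabp2 in stem-like cells had 84.7 and 61.3 CPM in the controls (83 and 61 counts) and 180, 143 and 125 CPM in the mutants (104, 104 and 118 counts). All 3 mutant values were above both controls. The log2 fold change was 0.96 (SE 0.19), which did not pass (edgeR adjusted p = 0.140, unadjusted p = 5.483e-05, with 2.98% of genes above 0 at an unadjusted p under 0.05; 1 of 7645 genes, 0.0131%, was called). It was 0.74 to 1.23 when each culture was left out in turn, and it passed only with no count filter (edgeR adjusted p = 3.812e-05). Non-overlap with the mutants higher was seen for 13.2% of genes in these cells, and Apob shared it with 27.6 and 36.2 against 41.6, 39.96 and 37.2 CPM (0.25, SE 0.23). Without each culture's cell richest in the gene, Apob had 26.3 and 30.8 against 39.0, 35.55 and 33.8 CPM. Fabp2 handled in the same way had 79.0 and 56.4 against 161, 129 and 120 CPM. Neither overlapped, although 33.8 CPM of Apob lies between the controls with all their cells.

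Enterocyte markers in the stem-like cells summed to 450 and 438 CPM in the controls and 428, 409 and 495 CPM in the mutants, which overlapped. After thinning, Fabp2 was seen in 18 of 51 and 13 of 52 control stem-like cells and in 13 of 26, 12 of 34 and 16 of 43 mutant ones, so that mutant culture 2 equalled control culture 1 at 35.3%. In goblet/Paneth-like cells, too few for a test, Fabp2 had 114 and 98.7 against 131, 170 and 173 CPM, and in enteroendocrine-like cells 38.9 and 37.8 against 9.83, 19.9 and 29.5 CPM on 1 to 9 counts per culture.

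Cycling-like cells had Fabp2 at 199 and 116 CPM in the controls and 225, 242 and 172 CPM in the mutants (0.46, SE 0.18; edgeR adjusted p = 0.980; 2 of 8975 genes, 0.0223%, called). Apoa1 there had 5.28 and 64.1 CPM in the controls and 4.98, 4.46 and 5.17 CPM in the mutants. Its estimate of −2.82 (SE 0.74; edgeR adjusted p = 0.980) included the cell of control culture 2 named above. Without that culture it was −0.13, and without control culture 1 it was −3.72 and passed (edgeR adjusted p = 8.38e-06). All 3 mutants lay below both controls, by little for control culture 1, as did 10.6% of all genes. Stem-like Apoa1 had 14.3 and 11.1 against 8.66, 4.13 and 8.50 CPM, from 3 to 14 counts per culture (−0.86, SE 0.47), with every mutant below both controls, as for 9.08% of all genes. In cluster 1 (2 of 7638 genes, 0.0262%, called) and cluster 8 (1 of 5113, 0.0196%) none of the genes tested passed. Apob in cluster 1 had 17.0 and 18.5 CPM in controls against 25.3, 19.6 and 20.4 CPM in mutants (0.21), without overlap, as 12.2% of all genes had with the mutants higher. Without its richest cell mutant culture 2 had 16.6 CPM, below both controls.

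**Figure D4:**
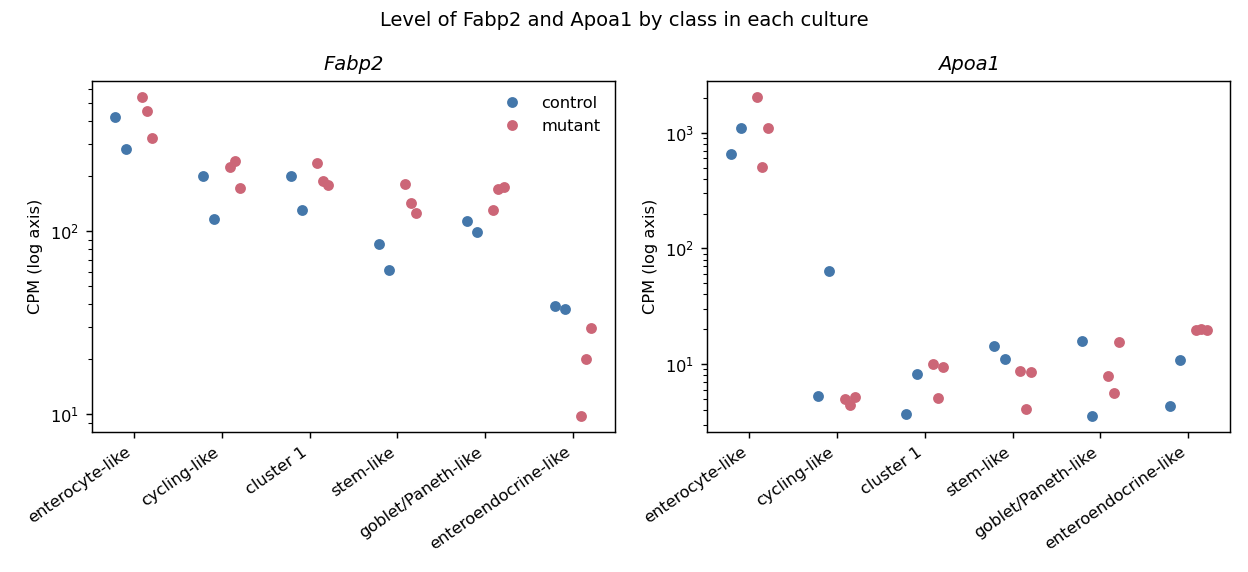
CPM (log axis) of Fabp2 and Apoa1 by class in each culture, with blue points for control and red points for mutant cultures. Fabp2 descends gradually from enterocyte-like to stem-like cells, where the control and mutant points do not overlap, while Apoa1 is at 3.59 to 19.9 CPM in the other classes drawn except in cycling-like cells of control culture 2 (64.1 CPM).

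A wider list of 74 lipid handling genes was read from the same fits. Over all cells 68 were tested, 49 estimates were above 0 and 19 below, none passed in edgeR, 6 had an unadjusted p under 0.05 in either direction (3.0% of all genes), and their median log2 fold change was 0.13. By role, the genes above 0 were 10 of 11 for chylomicron assembly and export, 7 of 7 for fatty acid oxidation, 11 of 15 regulators, 6 of 10 for re-esterification, 5 of 9 for uptake and activation, 4 of 6 for retinoid handling, 3 of 3 for sterol handling and 3 of 7 for droplets and hydrolysis. Among the smallest p-values were those of Dhrs3 (0.38), a retinal reductase, Cpt1a (0.56), which admits fatty acids to mitochondria, and Apoc2 (1.80), the activator of lipoprotein lipase. Apoc2 had 3.52 and 2.29 CPM in controls against 13.8, 2.60 and 15.6 CPM in the mutants, so mutant culture 2 stayed among the controls.

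In enterocyte-like cells 61 of the 74 were tested, with 40 above 0, 21 below, none passing, 4 at an unadjusted p under 0.05 in either direction (2.56% of all genes) and a median of 0.12. The fatty acid transporter Slc27a2 had 9.90 and 7.26 CPM in the controls and 16.6, 20.9 and 17.6 CPM in the mutants, without overlap (1.06, SE 0.32; edgeR adjusted p = 0.9998). Creb3l3, a transcription factor of lipid genes, had 44.8 and 60.2 against 42.2, 24.8 and 25.8 CPM, with every mutant below both controls (−0.76, SE 0.27), a pattern of 7.71% of all genes. Apoc2 had 10.5 and 8.82 against 65.0, 6.80 and 66.2 CPM (2.12, SE 0.85).

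In stem-like cells 37 of the 74 were tested, with 13 above 0, 24 below, none passing and 3 at an unadjusted p under 0.05 in either direction (6.47% of all genes), while 49.1% of all genes were above 0. The intestinal homeobox gene Isx, a repressor of retinoid uptake, had 25.5 and 27.2 CPM in the controls and 15.6, 6.89 and 19.1 CPM in the mutants, with every mutant below both controls (−0.93, SE 0.35; edgeR adjusted p = 0.674). In cluster 1 its estimate was −0.86 and in cycling-like cells −0.46, neither passing. Lpin2 (−0.89), Dbi (0.19) and Pparg (−0.86) had the next smallest p-values in stem-like cells. These comparisons share their cultures and are not independent of one another.

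The genes were also present in filtered barcodes that belong to no comparison. Apoa1 had 222 CPM in the 1432 assigned cells, 305 CPM in the 239 barcodes with several hashtags and 1034 CPM in the 1054 without a hashtag. Apoa4 had 14.7, 30.3 and 50.7 CPM in the same order, and Fabp2 213, 279 and 319.5 CPM. The culture-level values above thus leave out the barcodes in which most of these genes had their highest level, and whether that share is alike in both groups was not tested.

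**Figure D5:**
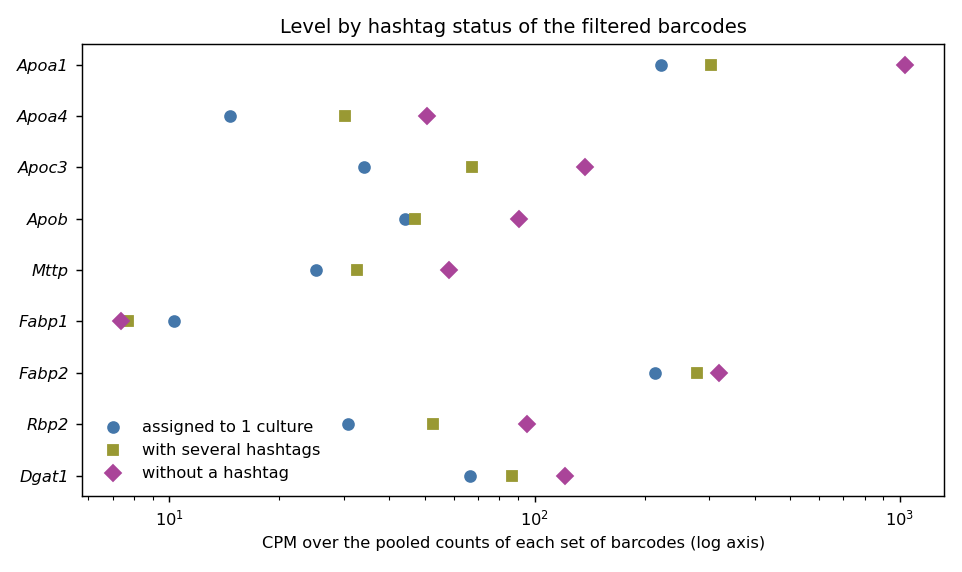
CPM (log axis) of 9 genes over the pooled counts of filtered barcodes assigned to 1 culture, with several hashtags and without a hashtag. The barcodes without a hashtag have the highest value for every gene except Fabp1, for which the assigned cells are highest.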

How the data were processed

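The genes, the wider lipid list, the markers and the tests were chosen with earlier results of these data known. The deposited RNA values are estimated counts per gene and barcode, of which 95.6% of those above 0 are whole (from the values), and the authors' hashtag file holds whole counts for the same 3409 barcodes. The submitters' processing notes name build mm10 and 4 tools, without their roles: Salmon 1.4.0 with alevin, Seurat 4.3.0, and Cell Ranger 6.1.0. Cells with at least 500 genes and at most 25% mitochondrial counts were assigned to cultures with HTODemux (Seurat 5.3.0, quantile 0.99). Of the 2725, 239 carried several hashtags and were left out as doublets, and 1054 carried none; no other doublet caller was run, so doublets within a culture may remain.

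Clusters came from scanpy 1.11.5 (scale 10000, log, 2000 variable genes without the 10 genes, 30 components, 15 neighbours, Leiden 0.8) and were named from marker lists, of which at least 3 had to be raised. Names were rebuilt here and may differ from the study's. The lists covered enterocyte, stem, cycling, goblet, Paneth, enteroendocrine, tuft, immune, mesenchymal and endothelial cells. Over all cells per culture the enterocyte list summed to 1468 to 2826 CPM, stem 2091 to 2583, cycling 749.6 to 1458, goblet 1111 to 2072, Paneth 1033 to 6771, enteroendocrine 161 to 633, tuft 0.321 to 13.8, immune 0.0 to 0.954, mesenchymal 0.306 to 5.24 and endothelial 0.0 to 0.306.

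For each culture, the estimated counts of all cells, or of a class with at least 20 cells in every culture, were added up, rounded and fitted with edgeR 4.0.16 (TMM, filterByExpr, quasi-likelihood, Benjamini-Hochberg over all genes tested); SE is the standard error of the log2 fold change. The script was tested on simulated data. DESeq2 1.42.0, limma 3.58.1 (log2 of CPM plus 1), other scalings, filters, hashtag calls and clusterings were tried as alternatives. Cultures are the replicates. All 10 genes are named where tested in every fit, with up to 4 genes of the wider list per fit by smallest p, in the fits described, and the 10 genes most like their sum; 1 gene that this rule names is not reported here. The labels name no batch. With 2 and 3 cultures the edgeR p-values set each difference against the spread between these cultures, which is estimated partly from all genes together.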

Additional observations from a re-analysis of the deposited data

Results flagged for a closer look

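Barcodes that passed the cell filter but carried no hashtag enter no comparison, and the 10 genes had counts there, Cd36 only 1. Over these 1054 barcodes the level was 1034 CPM for Apoa1, 50.71 CPM for Apoa4, 137.3 CPM for Apoc3, 90.72 CPM for Apob, 58.39 CPM for Mttp, 7.366 CPM for Fabp1, 319.5 CPM for Fabp2, 95.06 CPM for Rbp2 and 120.8 CPM for Dgat1. In the 1432 assigned cells it was 222, 14.7, 34.0, 44.0, 25.2, 10.3, 213, 30.8 and 66.6 CPM in the same order, so 8 genes were higher in barcodes without a hashtag and Fabp1 was lower. Of all 23098 Apoa1 counts, 13335 were in these barcodes.

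When both sets were clustered together, a setting chosen after seeing the data, 216 of 1054 barcodes without a hashtag (20.5%) and 242 of 1432 assigned cells (16.9%) were enterocyte-like. Within those, Apoa1 had 3085 CPM without a hashtag and 1079 CPM with one, Apoc3 409 and 165 CPM, Rbp2 280 and 145 CPM, and Fabp1 20.2 and 50.8 CPM. The cluster richest in Apoa1 (3943 CPM, led by Sprr1a, Anpep and Creb3l3) held 123 barcodes without a hashtag among its 215. Median hashtag counts in the enterocyte-like barcodes were 60 and 84. The culture of these barcodes is unknown, and their part in the comparison of mutant with control was not tested.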

How the results depend on the processing

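No paired analysis was possible because the labels give the cultures no shared replicate numbers. Of 467 recomputed estimates for single genes, 440 kept their direction and side of the threshold, 23 turned direction without passing the test and 4 passed it. With no count filter 1 gene passed in enterocyte-like cells (Fabp1, 1.87), 1 in cycling-like cells (Apoa1, −2.83) and 1 in stem-like cells (Fabp2, 0.96), and without control culture 1 Apoa1 passed in cycling-like cells (−3.72; −3.72 to −0.13 over cultures left out), against 0 genes in the settings reported and 0 to 1 over cultures left out.
Turned over all cells: Apoa1 −1.24 and Apoc3 −0.87 without enterocyte-like cells, Apoc3 0.00 (just below) without the richest cell, and Dgat1 −0.06 to 0.64 over cultures left out. Turned in enterocyte-like cells: with equal weight per cell Apoa1 −0.33, Apoc3 −0.42 and Rbp2 −0.11; without the richest cell Apoc3 −0.31; in cluster 7 Rbp2 −0.09; Dgat1 0.34 under MULTIseqDemux and 0.25 in cluster 2. Over cultures left out Apoa1 spanned −0.13 to 0.85, Apoc3 −0.22 to 0.42, Mttp −0.03 to 0.42 and Dgat1 −0.20 to 0.03. In cycling-like cells Apob was 0.05 without the richest cell and −0.43 to 0.53 over cultures left out. Over cultures left out Fabp2 spanned −0.06 to 0.59 in cluster 1 and Apob −0.33 to 0.24 in cluster 8. Where no value above shows a cause, the cause was not tested. The settings without enterocyte-like cells and in cluster 2, and all settings in classes other than enterocyte-like cells, were chosen after seeing the data, as were the levels without the cell richest in a gene. The few cells per culture, and 1 to 9 counts in the rarest class described, limit the precision.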
